A study of Mus musculus with 8 samples.

Results

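The p53 target genes described here are Trp53, which encodes p53 itself, and 9 genes that p53 is known to activate: Cdkn1a, Mdm2, Ccng1, Gdf15, Sesn2, Trp53inp1, Eda2r, Phlda3 and Gadd45a. They were taken by the gene name printed for each non-control probe of the array, which gave 14 probes of 10 genes among 55681 probes in all. Of these, 11 probes of 9 genes gave a signal well above background on 4 or more of the 8 arrays and were tested, and both probes of Eda2r were below it everywhere. RNA came from kidneys of CD-1 mice, an outbred stock. The 4 TAC samples were from mice given tacrolimus at 1 mg/kg per day for 28 days, and the 4 CTL samples from mice given physiological serum. Tacrolimus is a calcineurin inhibitor that prevents rejection of transplanted organs and is toxic to the kidney. The labels number the samples of a group as replicates and do not say whether each was a separate animal. A p-value here sets a difference only against the spread between samples of a group, which may not be the spread between animals. Age and sex of the mice were not used here.

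p53 is a transcription factor that an E3 ubiquitin ligase, Mdm2, keeps at a low level in unstressed cells. DNA damage and other stresses release it from Mdm2, and it then raises the RNA of genes for cell cycle arrest, DNA repair, apoptosis and metabolic control, among them Mdm2 itself, which closes a feedback loop. Because the protein is controlled mainly by its stability, the RNA of its targets is commonly read as a sign of its activity, and in injured kidney tubules Cdkn1a is among the targets best known to rise. Several targets have other inputs as well, and Gdf15 and Sesn2 also respond to the integrated stress response.

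p53 binds pairs of a 10-base element. Promoters of RefSeq on GRCm38.p6, 250 bases before to 50 after a start, were listed for 9 of the 10 genes with 11 entries, and both strands of the p53 element read alike because it is a palindrome. A pair of the elements without a spacer and with at most 1 mismatch was found in promoters of 2 of these genes, Cdkn1a and Ccng1, and in 29 of 32841 promoters of the table, 0.0883%. In Cdkn1a it begins 51 bases before the upstream of 2 listed starts (chr17:29090928-29090947, plus strand) and in Ccng1 195 bases before the start (chr11:40755462-40755481, minus strand). They are shown because these were the closest matches among the target genes, with the pair of elements in capitals within the 250 bases before the start:
Cdkn1a, chr17:29090729-29090978, plus strand: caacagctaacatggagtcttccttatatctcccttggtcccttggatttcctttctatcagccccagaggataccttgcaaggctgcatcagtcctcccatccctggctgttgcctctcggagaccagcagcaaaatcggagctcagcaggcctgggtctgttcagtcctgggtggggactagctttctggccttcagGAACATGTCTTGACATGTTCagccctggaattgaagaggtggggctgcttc
Ccng1, chr11:40755287-40755536, minus strand: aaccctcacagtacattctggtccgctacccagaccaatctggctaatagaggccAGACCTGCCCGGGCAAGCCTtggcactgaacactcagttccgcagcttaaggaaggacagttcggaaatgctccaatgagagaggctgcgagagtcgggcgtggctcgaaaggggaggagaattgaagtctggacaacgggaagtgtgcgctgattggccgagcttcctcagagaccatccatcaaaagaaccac
A single exact 10-base element was in 8.36% of all promoters of the table. The best pair in the promoter of Trp53 had 3 mismatches, as had that of Gadd45a, and the best pairs of Mdm2, Gdf15, Sesn2 and Phlda3 had 5. These windows do not cover the p53 elements in the introns of Mdm2 and Gadd45a, and a match of letters is not evidence of binding.

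A level is the log2 signal of a gene minus the log2 75th percentile of its array, and differences are TAC minus CTL on that log2 scale. The share of spots well above background ran from 64.0% to 69.8% per array, and no spot was saturated. The labels give an RNA integrity number of 9 for all 8 samples. All 8 arrays were on 1 slide, with the CTL arrays in 1 row and the TAC arrays in the other, so that row and treatment cannot be told apart. All 10 kidney epithelium markers examined, from Slc34a1 and Lrp2 of the proximal tubule to Umod, Slc12a3 and Aqp2 of later segments, were well above background on all 8 arrays. In bulk kidney RNA, fewer cells of a type and less RNA per cell cannot be told apart.

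No p53 target gene passed the test. Of the 9 genes tested, none had an adjusted p under 0.05 (limma, Benjamini-Hochberg over 25124 genes), a limit that 0.227% of all genes passed, and none had an unadjusted p under 0.05, which 15.5% of all genes had. The TAC arrays lay entirely above or below the CTL arrays in none of the 9, against 10.1% of all genes. The difference was negative in 8 genes and positive in 1, Gadd45a, and among all genes tested 39.5% were positive. The median difference was -0.21 over the 9 genes and -0.05 over all genes tested. Precision is limited by the 4 arrays in each group, so intervals are given with the differences.

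**Figure D1:**
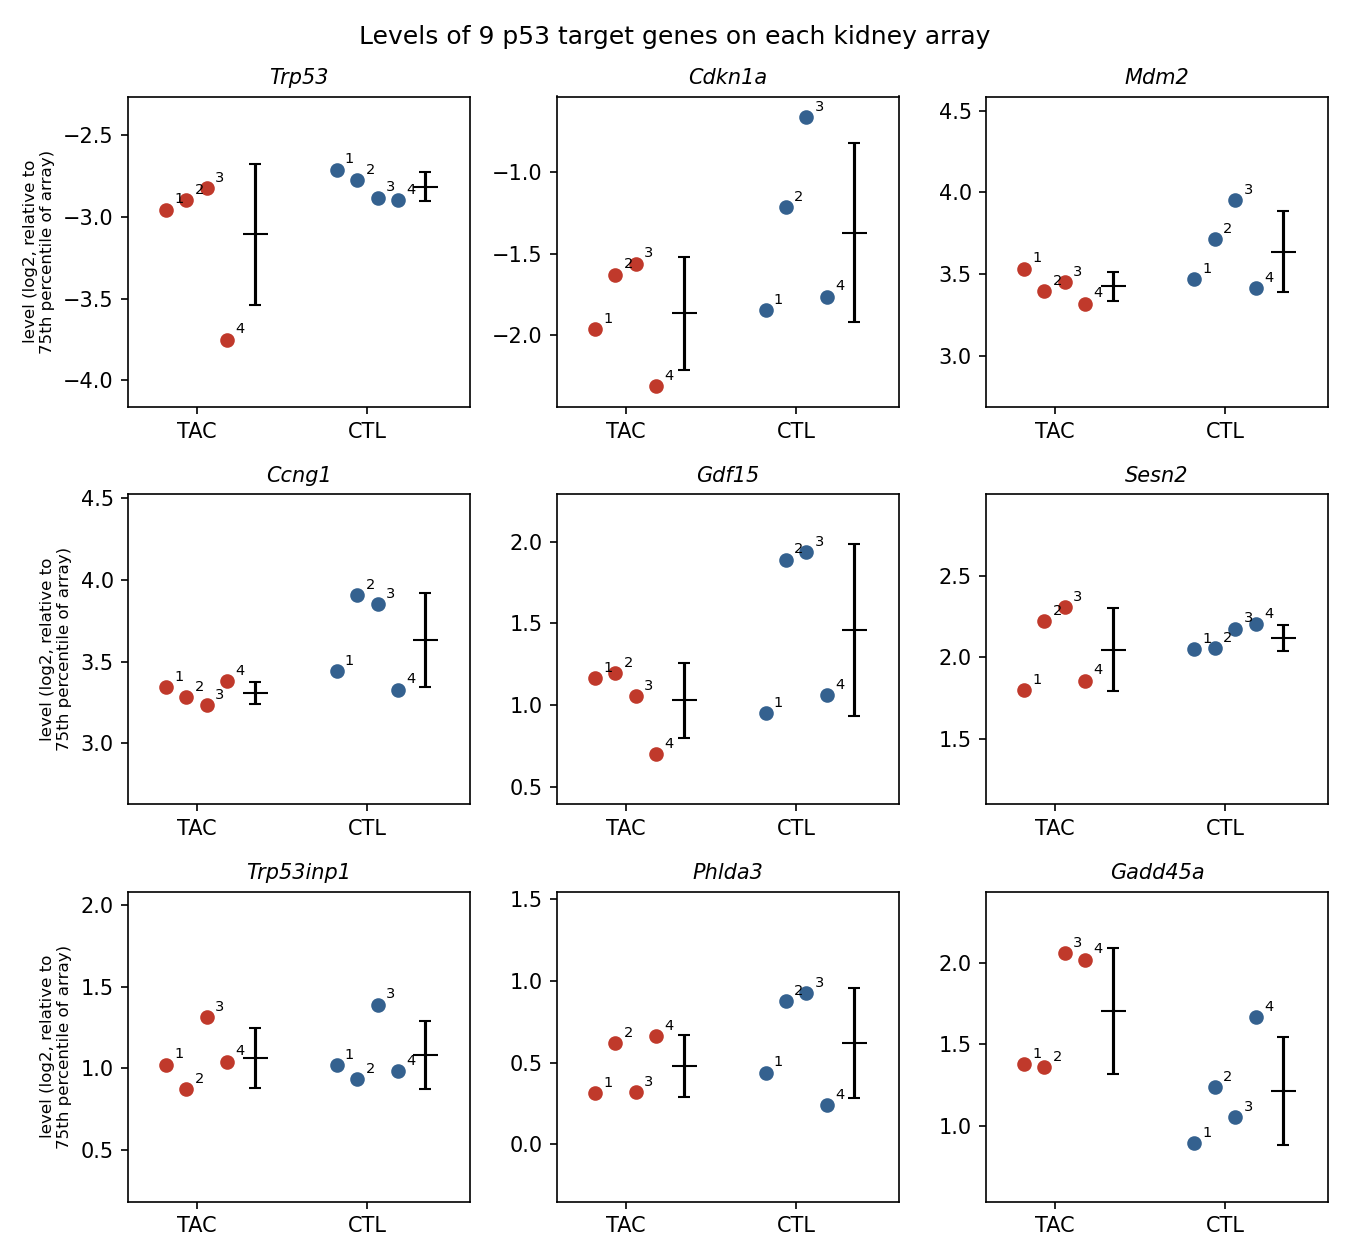
Level of each of the 9 tested p53 target genes (log2, relative to the 75th percentile of the array; the vertical span is the same in each panel) on the TAC arrays (red, left) and CTL arrays (blue, right), numbered by replicate, with mean and SD (black, n = 4 each). The groups overlap in every gene, and CTL replicates 2 and 3 are the highest arrays for Cdkn1a, Mdm2, Ccng1, Gdf15 and Phlda3.

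Trp53 was read by 1 probe (mm9, chr11:69404204-69404263), spotted on each array at 2 places. Its level was -2.96, -2.90, -2.83 and -3.75 on TAC replicates 1 to 4, against -2.71, -2.78, -2.88 and -2.90 on CTL replicates 1 to 4. TAC replicate 4 stood below the other 7 arrays, which lay close together. Both of its spots were low, at -3.68 and -3.82. The mean was -3.11 ± 0.43 on the TAC arrays and -2.82 ± 0.09 on the CTL arrays (SD, n = 4 each), a difference of -0.29 ± 0.20 (SE; adjusted p = 0.496, limma). Without TAC replicate 4 the difference was -0.08.

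Mdm2, the ligase that degrades p53 and is itself a target, had a level of 3.53, 3.39, 3.45 and 3.32 on the TAC arrays, against 3.47, 3.71, 3.95 and 3.41 on the CTL arrays. CTL replicates 2 and 3 were the highest of the 8, and CTL replicates 1 and 4 lay within the range of the TAC arrays. The difference was -0.21 ± 0.13 (SE; adjusted p = 0.452, limma), 0.863-fold, with a 95% interval from 0.700-fold to 1.06-fold.

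Cdkn1a encodes p21, the inhibitor of cyclin-dependent kinases through which p53 arrests the cell cycle. Its brightest probe (mm9, chr17:29237377-29237436) is spotted 10 times on each array, with an SD between spots of 0.05 to 0.08. The level was -1.96, -1.63, -1.56 and -2.31 on the TAC arrays, against -1.85, -1.22, -0.67 and -1.76 on the CTL arrays. CTL replicate 3 was the highest and TAC replicate 4 the lowest, and CTL replicates 1 and 4 lay within the range of the TAC arrays. The mean was -1.86 ± 0.34 on the TAC arrays and -1.37 ± 0.55 on the CTL arrays (SD, n = 4 each), a difference of -0.49 ± 0.28 (SE; adjusted p = 0.421, limma). This is 0.711-fold, with a 95% interval from 0.454-fold to 1.11-fold. Without CTL replicate 3 the difference was -0.26, and the SD of Cdkn1a between CTL arrays was the largest of the 9 genes.

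The further probes of Cdkn1a were dim. One is annotated to transcript variant 2 and lies upstream of the first probe (chr17:29227986-29228045). Its level was -6.91, -6.06, -5.20 and -7.14 on the TAC arrays, of which 1 was well above background, against -5.08, -5.21, -5.40 and -5.76 on the CTL arrays, all 4 of them well above background. TAC replicate 3 lay among the CTL arrays and the other TAC arrays lay below all of them. The difference was -0.96 ± 0.40 (SE; unadjusted p = 0.0410 and adjusted p = 0.330, limma over 36489 probes, of which 14.3% had an unadjusted p under 0.05). The probe passed the filter through the CTL arrays, where its level was higher. Its p is therefore not independent of the filter, and no conclusion is drawn from it. The third probe (chr17:29235299-29235358) was well above background on 1 CTL array and on no TAC array, and was not tested. The mean local background of the arrays, which matters most for dim probes, was 19.3 to 20.5 intensity units (TAC) and 21.8 to 22.1 (CTL), and its part in these differences was not tested.

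**Figure D2:**
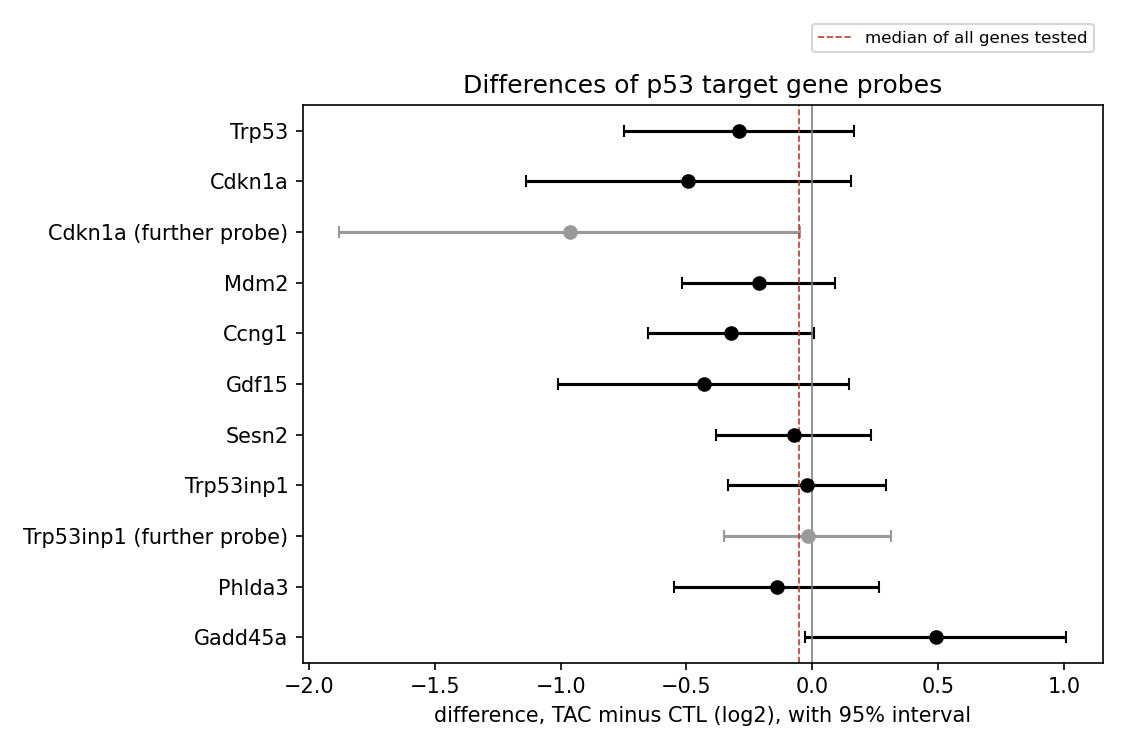
Difference, TAC minus CTL (log2), of each of the 11 tested probes of p53 target genes, with its 95% interval from limma across all probes (black, the brightest probe of a gene; grey, a further probe). The dashed red line marks the median of all genes tested, -0.05. Only the further probe of Cdkn1a has an unadjusted interval that leaves out 0. That probe is dim, was well above background on 1 TAC array, and passed the filter through the CTL arrays.

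Ccng1 encodes cyclin G1, a p53 target that recruits a phosphatase to Mdm2. Its level was 3.34, 3.28, 3.23 and 3.38 on the TAC arrays, against 3.44, 3.90, 3.85 and 3.33 on the CTL arrays. The TAC arrays lay within 0.2 of each other, and CTL replicate 4 lay among them. Ccng1 had the lowest p of the 9 genes, with a difference of -0.32 ± 0.14 (SE; unadjusted p = 0.0530 and adjusted p = 0.327, limma), 0.800-fold with a 95% interval from 0.637-fold to 1.00-fold. Among all genes tested, 16.2% had a lower p.

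Phlda3, a pleckstrin homology protein that p53 induces and that restrains Akt at the membrane, had levels of 0.31, 0.62, 0.32 and 0.66 on the TAC arrays, against 0.44, 0.88, 0.93 and 0.24 on the CTL arrays. The lowest array of all was CTL replicate 4 and the highest were CTL replicates 2 and 3, so that the CTL arrays spanned the TAC arrays. The difference was -0.14 ± 0.18 (SE; adjusted p = 0.726, limma), with an interval from 0.684-fold to 1.20-fold.

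Gdf15 encodes a secreted cytokine of the TGF-beta superfamily that p53 and the integrated stress response both induce. Its level was 1.16, 1.20, 1.05 and 0.70 on the TAC arrays, against 0.95, 1.89, 1.94 and 1.06 on the CTL arrays. CTL replicates 2 and 3 were clearly above the other 6 arrays, and the other CTL arrays lay among the TAC arrays. The mean was 1.03 ± 0.23 on the TAC arrays and 1.46 ± 0.53 on the CTL arrays (SD, n = 4 each), a difference of -0.43 ± 0.25 (SE; adjusted p = 0.428, limma).

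Sesn2 encodes sestrin 2, which restrains mTORC1 under stress. Its level was 1.80, 2.22, 2.31 and 1.86 on the TAC arrays, against 2.05, 2.06, 2.18 and 2.20 on the CTL arrays. Here the TAC arrays were the more spread, with replicates 1 and 4 below and replicates 2 and 3 above the CTL arrays. The difference was -0.07 ± 0.13 (SE; adjusted p = 0.817, limma), with an interval from 0.770-fold to 1.17-fold.

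Trp53inp1, a nuclear protein that promotes p53 phosphorylation and autophagy, was read by 2 probes. At the brighter one (mm9, chr4:11101174-11101233) the level was 1.02, 0.87, 1.31 and 1.04 on the TAC arrays, against 1.02, 0.94, 1.39 and 0.98 on the CTL arrays. Each group had 1 array, replicate 3, above the rest. The difference was -0.02 ± 0.14 (SE; adjusted p = 0.959, limma), with an interval from 0.795-fold to 1.22-fold, and the further probe (chr4:11092530-11092589) differed by -0.02 ± 0.15.

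Gadd45a, a stress protein that acts in growth arrest and DNA repair, was the single gene with a positive difference. Its level was 1.38, 1.36, 2.06 and 2.02 on the TAC arrays, against 0.90, 1.24, 1.06 and 1.66 on the CTL arrays. TAC replicates 3 and 4 were above all others, and CTL replicate 4 lay above TAC replicates 1 and 2. The difference was 0.49 ± 0.23 (SE; unadjusted p = 0.0603 and adjusted p = 0.338, limma), 1.40-fold with a 95% interval from 0.982-fold to 2.01-fold.

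Eda2r, a receptor of the TNF receptor family that p53 induces, had levels between -8.54 and -7.46 on the TAC arrays and between -8.53 and -7.91 on the CTL arrays at its probes (mm9, chrX:94531320-94531379 and chrX:94534281-94534340). Neither probe was well above background on any of the 8 arrays, so no fold is given. Its RNA was not detectable at this signal in either group.

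**Figure D3:**
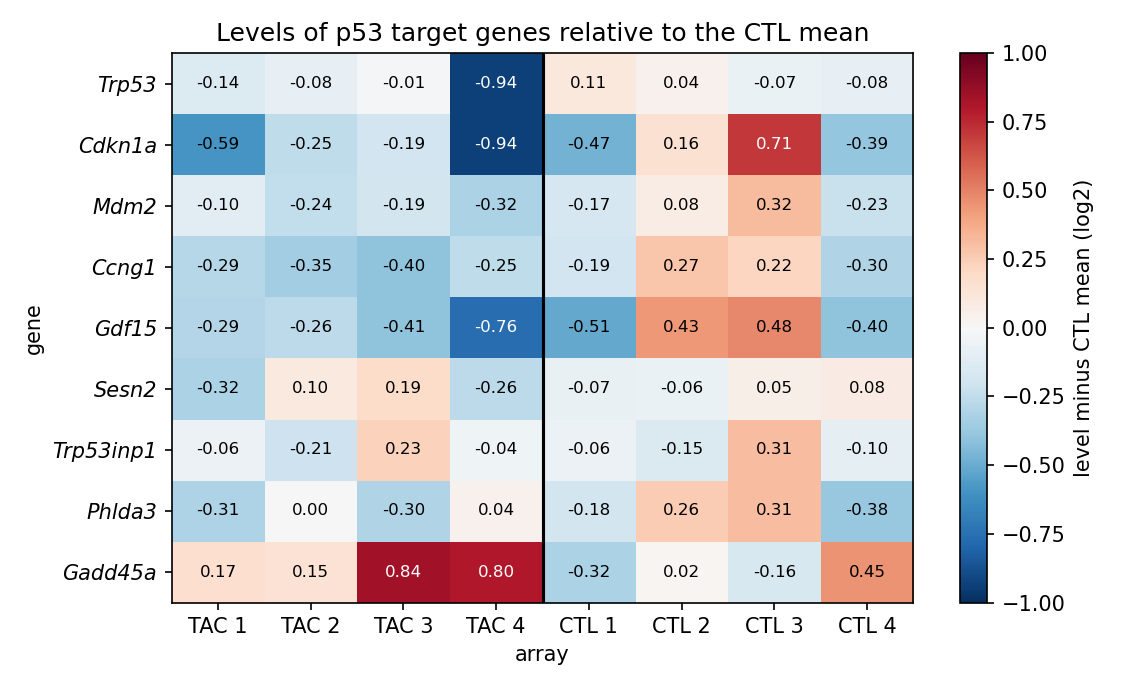
Level of each tested p53 target gene minus its CTL mean (log2, colour and printed value) on each array, TAC arrays left of the line and CTL arrays right of it. CTL replicates 2 and 3 are positive together in Cdkn1a, Mdm2, Ccng1, Gdf15 and Phlda3, while CTL replicates 1 and 4 are negative in all of these.

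In 5 of the 9 genes the CTL arrays fell into a higher and a lower pair, and the same arrays made up the pairs. CTL replicates 2 and 3 were the highest pair among the 8 arrays in 5 of the 9 genes: Cdkn1a, Mdm2, Ccng1, Gdf15 and Phlda3. The same pair was the highest in 2758 of all 25124 genes tested, 11%. In Gdf15, CTL replicates 2 and 3 were 0.43 and 0.48 above the CTL mean, while replicates 1 and 4 were 0.51 and 0.40 below it. The SD between arrays was 0.07 (TAC) and 0.29 (CTL) for Ccng1, and 0.09 (TAC) and 0.25 (CTL) for Mdm2. Sesn2, Trp53inp1, Gadd45a and Trp53 did not have this order. The pattern was seen in these values and was not tested.

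Genes near Cdkn1a were sought among tested genes with a symbol, without provisional names such as those of Rik, Gm or LOC type. The gene of these whose 8 levels, each relative to its CTL mean, lay nearest to those of Cdkn1a was Bid. Bid is a pro-apoptotic Bcl2 family gene that p53 also regulates, and its root mean square difference was 0.14 over the 8 arrays. Gdf15 followed at 0.19, then Catip at 0.20, and Acnat1 and Atp4b at 0.22 each. Bid had levels of 2.68, 2.88, 2.87 and 2.05 on the TAC arrays, against 2.71, 3.17, 3.49 and 2.70 on the CTL arrays. Like Cdkn1a, it was lowest on TAC replicate 4 and highest on CTL replicate 3, and its difference was -0.40 ± 0.24 (SE; adjusted p = 0.445, limma).

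Further genes of the p53 network were read from 6 lists. Of 74 tested genes none had an adjusted p under 0.05 (limma). Without adjustment 9 were higher and 4 lower at that limit, 17.6% together, against 7.04% higher and 8.42% lower among all genes. Their median difference was 0.02, against -0.05 over all genes tested. CTL replicates 2 and 3 were the highest pair in 9 of the 74, 12.2%, close to the 11% of all genes tested.

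**Figure D4:**
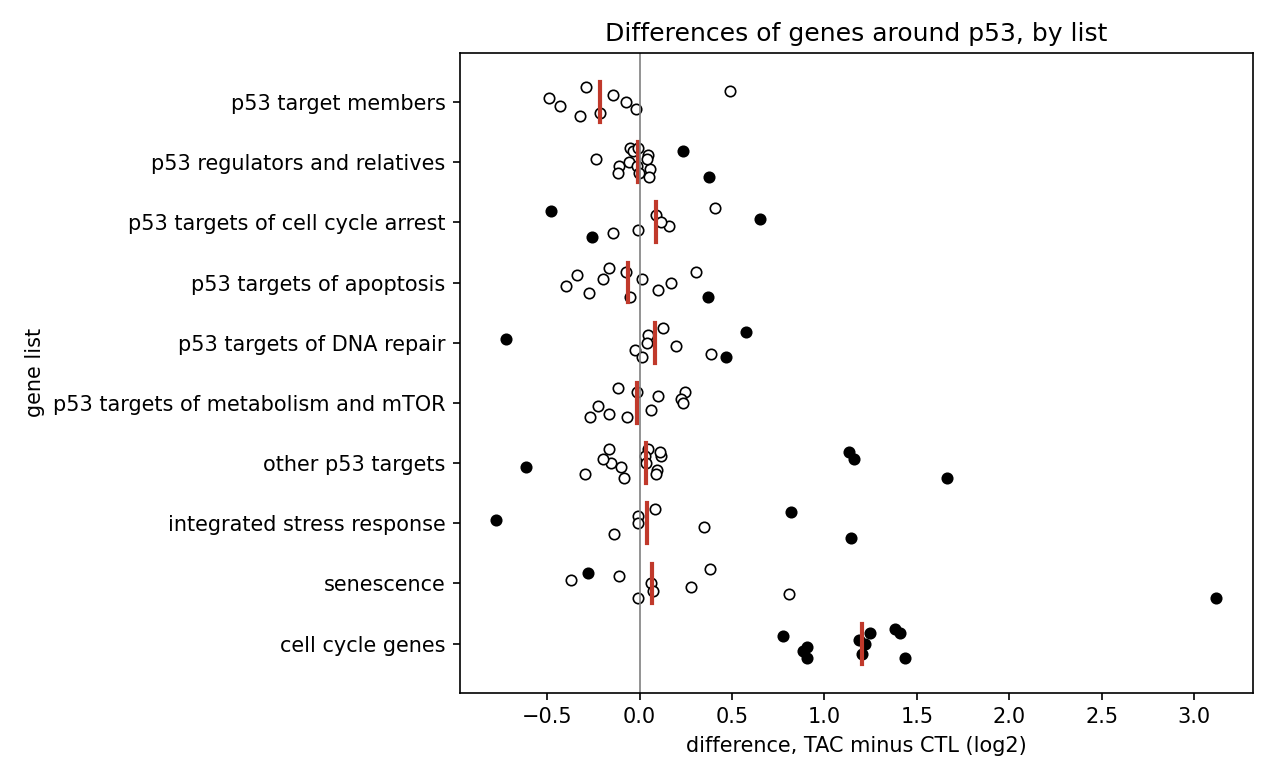
Difference, TAC minus CTL (log2), of each tested gene in 10 lists around p53 (filled, unadjusted p under 0.05 in limma; open, not; small vertical offsets separate points), with the list median in red. The p53 target genes lie between -0.49 and 0.49, while all 11 cell cycle genes lie between 0.78 and 1.44.

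Among 15 tested regulators and relatives of p53, 2 had an unadjusted p under 0.05. These were the DNA damage kinases Chek2, which differed by 0.38 ± 0.13 (SE), and Atm, by 0.24 ± 0.09, with adjusted p values of 0.234 and 0.257 (limma). A further probe of Atm differed by 0.11 ± 0.12. Trp73, a p53 relative, and Usp7, which removes ubiquitin from Mdm2 and p53, differed by -0.24 ± 0.15 and -0.11 ± 0.09, and a further probe of Usp7 by 0.02 ± 0.09. Cdkn2a, the source of the Mdm2 inhibitor p19Arf, was not tested.

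Among 9 tested targets in cell cycle arrest, 3 had an unadjusted p under 0.05. The mitotic regulator Gtse1 differed by 0.65 ± 0.28 (SE; adjusted p = 0.312, limma). Its probe was dim, with a signal well above background on 3 TAC and 2 CTL arrays. Over the 16 alternatives that tested Gtse1, its difference ran from 0.24 to 0.93. The polo-like kinase Plk2 differed by -0.48 ± 0.19 and the E2F repressor E2f7 by -0.26 ± 0.10 (adjusted p = 0.291 and 0.267, limma). The probes of E2f7 disagreed: the TAC arrays lay entirely below the CTL arrays at the brighter one and entirely above them at the other, which differed by 0.97 ± 0.23 (unadjusted p = 0.00253 and adjusted p = 0.131, limma over all probes). Btg2, an antiproliferative early target, differed by 0.16 ± 0.12.

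Of 12 tested targets in apoptosis, 1 had an unadjusted p under 0.05, Siva1, which differed by 0.37 ± 0.13 (SE; adjusted p = 0.247, limma) and by 0.26 ± 0.12 at a further probe. Bbc3, encoding the BH3-only protein PUMA, differed by 0.31 ± 0.18 and the desmosomal effector Perp by -0.20 ± 0.12. Of 10 tested targets in DNA repair, 3 had an unadjusted p under 0.05 (limma). The nucleotide excision repair gene Ddb2 differed by 0.57 ± 0.21 and Gadd45g, a paralogue of Gadd45a, by -0.72 ± 0.29 (adjusted p = 0.252 and 0.297, limma), and the replication clamp gene Pcna by 0.20 ± 0.11.

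None of the 11 tested targets in metabolism and mTOR control had an unadjusted p under 0.05 (limma). Sesn1 and Sesn3, paralogues of Sesn2, differed by 0.25 ± 0.14 (SE) and 0.22 ± 0.12, the mitochondrial dehydrogenase gene Aldh4a1 by -0.27 ± 0.12, and Tigar, a fructose bisphosphatase, by -0.22 ± 0.13 and by -0.18 ± 0.12 at a further probe. The list spanned -0.27 to 0.25, with 5 of 11 positive.

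The largest differences of the network were in the list of other p53 targets, where 4 of 17 had an unadjusted p under 0.05, 3 of them with a positive difference. The tetraspanin gene Cd82 differed by 1.13 ± 0.22 (SE; adjusted p = 0.0727, limma) and by 1.02 and 1.24 at 2 further probes. Tap1, a transporter of antigen peptides that interferon induces, differed by 1.16 ± 0.28 (adjusted p = 0.125), and the phosphatase gene Ptp4a3 by -0.61 ± 0.18 (adjusted p = 0.172).

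Genes of neighbouring programmes gave the following counts, to be read beside the 15.5% of all genes tested that had an unadjusted p under 0.05 (limma). Of 8 tested genes of the integrated stress response, which shares Gdf15 and Sesn2 with p53, 3 had an unadjusted p under 0.05 and none passed over all genes. Atf3, an early stress transcription factor, differed by 1.15 ± 0.31 (SE), the amino acid enzyme gene Asns by 0.82 ± 0.31, and Chac1, a glutathione-degrading enzyme, by -0.78 ± 0.33 (adjusted p = 0.158, 0.276 and 0.319, limma). Trib3, a pseudokinase induced by the same response, differed by 0.35 ± 0.24. Among 10 genes linked to senescence, the chemokine gene Ccl2 rose by 3.12 ± 0.45 (adjusted p = 0.0469, limma) and no other gene passed. With 1 array left out Ccl2 passed in 1 of 8 fits, the one without CTL replicate 1, with an adjusted p of at most 0.124 over all alternatives. The polycomb gene Bmi1 differed by -0.28 ± 0.10 and by -0.17 ± 0.09 at a further probe, the lysosomal galactosidase gene Glb1 by -0.37 ± 0.18 and the lamin gene Lmnb1 by 0.28 ± 0.16.

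Cell cycle genes, many of which p21 is known to hold down through the DREAM and retinoblastoma repressors, all had positive differences. Of 11 tested, Cdca3 rose by 0.91 ± 0.11 (SE; adjusted p = 0.0302) and Birc5 by 1.25 ± 0.18 (adjusted p = 0.0482), and the other 9 had an unadjusted p under 0.05 (limma) with adjusted p up to 0.136. The calls rested on all 8 arrays: with 1 array left out Cdca3 passed in 0 of 8 fits and Birc5 in 1, the one without CTL replicate 1, and their adjusted p reached 0.0992 and 0.132 over all alternatives (limma). Further probes of Birc5 differed by 1.42 ± 0.27 and 1.36 ± 0.24 and did not pass over all probes (adjusted p = 0.0857 and 0.0699, limma). The TAC arrays lay entirely above the CTL arrays in all 11, while the groups did not overlap, in either direction, in 10.1% of all genes. The cyclin genes Ccnb2 and Ccna2 differed by 1.19 ± 0.19 and 0.91 ± 0.14. The mean of these genes relative to their CTL mean was 1.19, 1.48, 1.04 and 0.85 on TAC replicates 1 to 4, against 0.37, 0.23, -0.45 and -0.15 on CTL replicates 1 to 4. CTL replicate 3, the highest array for Cdkn1a, was the lowest for the cell cycle genes, while TAC replicate 4, the lowest for Cdkn1a, was the lowest of the TAC arrays for them. This list was chosen with its earlier result known.

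Markers of other cells were read on the same arrays, and no macrophage, adipocyte or T cell marker had an adjusted p under 0.05 (limma). The mean of 10 macrophage markers relative to the CTL mean was 0.64 to 1.46 on the TAC arrays and -0.32 to 0.32 on the CTL arrays, with an unadjusted p under 0.05 for 8 of 10 in the positive and 1 in the negative direction (limma). Among all genes tested, 7.04% were higher and 8.42% lower at that limit. The mean of 9 adipocyte markers was 1.45 to 3.63 on the TAC arrays and -0.61 to 1.44 on the CTL arrays. CTL replicate 2 was the high one, and 5 of 9 markers were positive at that limit. Of these 5, Plin1 was well above background on 4 TAC arrays and no CTL array, and Adipoq on 4 TAC arrays and 1 CTL array. Plin1 passed the filter only through the TAC arrays, where its level was higher. Its p is therefore not independent of the filter, and no conclusion is drawn from it. Its dim CTL values also enter the adipocyte mean. The means of 6 urothelium markers were 0.32 to 3.60 (TAC) and -0.27 to 0.21 (CTL), those of 10 T cell markers 0.17 to 0.81 (TAC) and -0.30 to 0.46 (CTL), which overlap, and those of 10 kidney epithelium markers -0.16 to -0.01 (TAC) and -0.07 to 0.12 (CTL). At an unadjusted p under 0.05, 1 urothelium marker (Krt20), 4 T cell markers and no kidney epithelium marker were higher (limma). Krt20 also passed the adjusted limit, with a difference of 4.98 ± 0.58 (SE; adjusted p = 0.0266, limma). In the other 5 urothelium markers the groups overlapped, with unadjusted p of at least 0.141 (limma). On TAC replicate 2, Upk3a, Krt5, Upk1a and Upk2 were below all CTL arrays, while Krt20 was above them. Upk3b on that array, at -8.18, was below its CTL mean of -6.63, so Krt20 alone placed the urothelium mean of TAC replicate 2 above the CTL arrays. The means of the 6 markers therefore do not show urothelium markers as a set to be higher on all TAC arrays. TAC replicate 4 had the highest adipocyte and urothelium means and the lowest levels of Trp53, Cdkn1a, Mdm2 and Gdf15. The other tested target genes did not have this order. TAC replicate 4 was the highest of the TAC arrays for Ccng1 (3.38) and Phlda3 (0.66). For Sesn2, Trp53inp1 and Gadd45a it was neither the highest nor the lowest of the TAC arrays. The part of these cells in the levels of the p53 target genes was not tested.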

How the data were processed

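Kidney RNA of 8 samples was measured on Agilent mouse expression arrays with 1 dye and 62976 features each. Per the file headers, the deposited intensity of each spot was read with Agilent Feature Extraction 10.7.3.1, which subtracts background and detrends the signal. The deposited table holds log2 values equal, to within 5e-09, to the quantile-normalized raw median intensity without background subtraction, and the submitters' processing notes name limma.

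The level used here, the log2 processed intensity of a spot less the log2 75th percentile of its array, was averaged by probe, without control spots and outlier spots (147 to 194 per array). Probes with a signal well above background on 4 or more arrays (36489) were tested, a gene by its brightest probe, which gave 25124 genes and unnamed transcripts. Symbols came through the accession from RefSeq (GRCm38.p6), which matched 28026 probes. The test was two-sided with limma (3.58.1, under R 4.3.3), and a gene was called at an adjusted p under 0.05. In simulated arrays of these 25124 genes, changes of 1 and 2 log2 units were recovered for 62% and 90% of 100 genes each, with 8 of 160 calls on unchanged genes.

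The p53 target genes and all lists were chosen with earlier results of these data known. Named were all 10 target genes, up to 4 genes of each further list with the lowest p, and the 5 genes nearest to Cdkn1a. Those 5 were taken from tested genes with a symbol, without provisional names. A few genes that this rule names are not reported here, though the counts of their lists include them. The markers are described by their means. The further probes of list genes were added after their values were seen, as was the search for p53 elements without a spacer. Each difference was recomputed under 17 alternatives, or fewer where the gene failed the filter of an alternative. The replicate numbers were not treated as pairs. Some probes measure isoforms, and cross-hybridisation was not checked.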

Additional observations from a re-analysis of the deposited data

Results flagged for a closer look

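Trp53 on TAC replicate 4, at -3.75, stood apart from the other TAC arrays, which lay between -2.96 and -2.83. Its gap to the nearest of them was 0.860 of the range of the 4 TAC arrays, above the 95% critical value of Dixon for 4 samples. Of 22 groups of 4 examined over the 11 tested probes, this was the only 1, where chance gives about 1 in 20. The same array was the lowest of the TAC arrays in the normexp values (-2.79) and in the deposited table (6.65, against 7.23 to 7.27 on the other TAC arrays).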

How the results depend on the processing

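No p53 target gene was called at an adjusted p under 0.05 (limma) under any of the 17 alternatives. At an unadjusted p under 0.05 there were 2 with normexp (Ccng1 and Gadd45a), 1 with the filter on all 8 arrays (Ccng1), 1 with array weights (Ccng1), 1 with the mean of a gene's probes (Cdkn1a), and 0 to 2 when 1 array was left out. With the replicate number as a block there were 2 genes of this kind, Cdkn1a and Gadd45a, with adjusted p of 0.207 and 0.231 in limma. The labels do not say what samples of the same number share. Deviations from the group means correlated by 0.02 to 0.16 in same-numbered pairs. Each CTL sample correlated best with the TAC sample of its own number, as did TAC replicates 1, 3 and 4 with theirs. TAC replicate 2 correlated more with CTL replicate 1 (0.06) than with CTL replicate 2 (0.02). Quantile normalization, the deposited table, no filter on dim probes, and leaving out both CTL replicate 2 and TAC replicate 4 gave 0. Over all genes the calls numbered 57, against 285 with normexp, 180 with the deposited table, 32 with no filter, 151 with the filter on all 8 arrays, 309 with array weights, 103 with the replicate block, 8 without both CTL replicate 2 and TAC replicate 4, and 7 to 56 when 1 array was left out. The cause was not tested. The differences of Cdkn1a, Mdm2, Ccng1, Gdf15, Phlda3, Trp53 and Gadd45a kept their sign under all 17. Trp53inp1 turned to 0.0012 with quantile normalization, 0.042 without TAC replicate 2 and 0.082 without CTL replicate 3 (from -0.10 to 0.082 with 1 array left out), and Sesn2 to 0.0077 without TAC replicate 1 (from -0.16). E2f7, of the further list, turned to 0.36 with the mean of its probes, which disagree. Cdkn1a ranged from -0.73 to -0.26 and Gadd45a from 0.37 to 0.64. The -0.73 of Cdkn1a came from the mean of its probes. That mean takes in the dim further probe, which was well above background on 1 TAC array. Signal over background limits the further probes of Cdkn1a and both of Eda2r.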
